A study of Saccharomyces cerevisiae with 12 samples.

Results

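The genes described here encode the subunits of the 26S proteasome of budding yeast (Saccharomyces cerevisiae) and its transcriptional activator Rpn4. They were chosen by systematic name: 32 subunit genes, namely 7 for alpha subunits and 7 for beta subunits of the 20S core, 6 for the ATPases and 4 for other subunits of the base, and 8 for the lid of the 19S particle, together with RPN4. All 33 genes were found among the 6685 genes listed, and all 33 lay above the filter on low values that left 6546 genes for testing. The alpha subunit genes are SCL1, PRE8, PRE9, PRE6, PUP2, PRE5 and PRE10, and the beta subunit genes PRE3, PUP1, PUP3, PRE1, PRE2, PRE7 and PRE4. The base genes are RPT1 to RPT6, RPN1, RPN2, RPN10 and RPN13, and the lid genes RPN3, RPN5, RPN6, RPN7, RPN8, RPN9, RPN11 and RPN12. RPN4 is YDL020C, and the systematic names of the genes that the results turn on stand beside their sequences.

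Poly-A RNA was sequenced from cho2Δ and wild-type (WT) cells, both CEN.PK of mating type MAT a, and in the mutant KanMX stood in place of CHO2. CHO2 encodes the enzyme that begins the methylation of phosphatidylethanolamine to phosphatidylcholine, a pathway that consumes S-adenosylmethionine. Cells were taken from YPL, a rich medium that holds 2% lactate, 2% peptone and 1% yeast extract, and at 1 h and 3 h after washing and transfer at an A600 of 1 to SL, a minimal medium with 2% lactate, 0.5% ammonium sulfate and 0.17% nitrogen base, and no amino acids. The 6 groups, cho2Δ and WT in YPL, at 1 h in SL and at 3 h in SL, had 2 libraries each, which the series text calls biological replicates, and no source used here says whether 1 clone or several carried the deletion.

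The 26S proteasome degrades proteins that carry ubiquitin chains. The 19S particle binds, unfolds and deubiquitinates them, with the ATPases RPT1 to RPT6 as its motor, and the 20S core cuts them in a chamber of catalytic and structural beta subunits closed by rings of alpha subunits. Rpn4, a short-lived protein that the proteasome itself degrades, binds a promoter motif called the proteasome-associated control element and drives the subunit genes together.

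Recovered reads per library ranged from 3.17 M, in the second WT library at 3 h, to 12.5 M, and every value below is a normalised read count as deposited, a level relative to the rest of the poly-A RNA, in which fewer cells of a kind and less RNA per cell cannot be told apart. CHO2 had 3.77 to 9.19 normalised read counts in cho2Δ libraries and 1570.5 to 4065 in WT libraries, as the labels state. Of the mating type genes, STE2, MFA1, MFA2 and STE6, which mark MAT a cells, were at 237 or more in every library, and MF(ALPHA)1 and MF(ALPHA)2, which mark the other type, were at 72.3 or less. STE3, the third gene of the other type in the list, was at 93 to 339, which overlaps the lowest values of MFA1. Whether the libraries of a pair had separate cultures is not stated, and the p-values below therefore reflect only their spread, which may be technical. The second cho2Δ library at 3 h stood apart, with the median of all tested genes 0.34 below the mean of the 12 libraries on the log2 scale, so the counts and medians at 3 h in cho2Δ are given with and without it. Scaling by trimmed mean of M values (TMM) in place of the deposited factors moved the median of all genes by -0.15 for WT at 1 h against YPL, by 0.20 for WT at 3 h against 1 h, by 0.13 for cho2Δ at 3 h against YPL and by 0.19 for cho2Δ at 3 h against 1 h, so medians of the subunit genes are given beside the median of all tested genes.

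The control element, GGTGGCAAA on either strand, was searched in the window from 250 bases before to 50 bases after the start codon, in the RefSeq sequence of the reference strain, release R64. It stood in 27 of the 32 subunit promoters (84.4%), against 71 of all 5987 promoters of the same length (1.19%). The 71 include the 27, and outside the 33 genes the motif stood in 44 of 5954 promoters (0.739%). The motif was chosen as the known element of proteasome genes, so its high share among them is a description and not a test. Each of the 27 promoters held 1 copy, between 183 and 84 bases before the start codon with a median of 120, on the strand of the gene in 19 and on the other strand in 8. Sites are shown for the genes that the results turn on, with 15 bases on each side, read 5′ to 3′ on the strand of the gene and with the motif in capitals; TTTGCCACC is the motif on the other strand. The coordinates are those of R64, not of the build sacCer2 that the submitters used, and the strain sequenced was CEN.PK.
PRE3 (YJL001W, chrX:435030-435068, plus strand): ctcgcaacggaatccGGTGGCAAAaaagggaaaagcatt
PRE10 (YOR362C, chrXV:1018851-1018889, minus strand): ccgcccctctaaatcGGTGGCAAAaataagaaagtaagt
PRE9 (YGR135W, chrVII:761218-761256, plus strand): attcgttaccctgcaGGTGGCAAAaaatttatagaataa
PRE1 (YER012W, chrV:177678-177716, plus strand): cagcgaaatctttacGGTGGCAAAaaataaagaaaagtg
PRE8 (YML092C, chrXIII:86836-86874, minus strand): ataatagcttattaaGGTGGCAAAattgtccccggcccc
RPT1 (YKL145W, chrXI:174043-174081, plus strand): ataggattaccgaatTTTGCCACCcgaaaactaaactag
RPT3 (YDR394W, chrIV:1261490-1261528, plus strand): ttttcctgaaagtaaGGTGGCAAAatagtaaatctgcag
RPN11 (YFR004W, chrVI:153254-153292, plus strand): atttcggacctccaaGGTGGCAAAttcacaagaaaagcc

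The remaining 5 subunit promoters, those of PRE5, PUP1, RPN8, RPN10 and RPN13, each held 1 site that differed from the motif by 1 base, a search added after the data had been seen. Counted from 1 at the 5′ end of GGTGGCAAA, the substitution was G1A in PRE5, PUP1 and RPN8 and A7G in RPN10 and RPN13. These sites are shown because 3 of these genes, PRE5, PUP1 and RPN10, are among those that differed between strains; the motif of RPN10 lies on the other strand, and capitals mark the 9 bases.
PRE5 (YMR314W, chrXIII:901547-901585, plus strand): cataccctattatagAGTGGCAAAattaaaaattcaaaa
PUP1 (YOR157C, chrXV:631886-631924, minus strand): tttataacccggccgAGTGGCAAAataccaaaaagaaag
RPN8 (YOR261C, chrXV:817080-817118, minus strand): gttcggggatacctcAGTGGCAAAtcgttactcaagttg
RPN10 (YHR200W, chrVIII:498963-499001, plus strand): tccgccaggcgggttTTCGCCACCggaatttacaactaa
RPN13 (YLR421C, chrXII:965651-965689, minus strand): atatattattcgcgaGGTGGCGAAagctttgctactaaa

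With 1 base allowed to differ, all 32 subunit promoters held the motif, against 453 of 5987 promoters (7.57%). The 8-base core GTGGCAAA, which overlaps the motif, stood in 30 of the 32 and in 143 of all promoters (2.39%). The RPN4 window held neither the motif nor a site with 1 base different. Of the other motifs searched there on both strands, TCCGNGGA (72 of all promoters), TTAGTAA with its reverse complement TTACTAA (446 of all, 7.45%) and the heat shock type GAANNTTC (705 of all, 11.8%), the RPN4 window held only GAANNTTC. The match describes letters in this window and was not tied to any protein here.

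**Figure D1:**
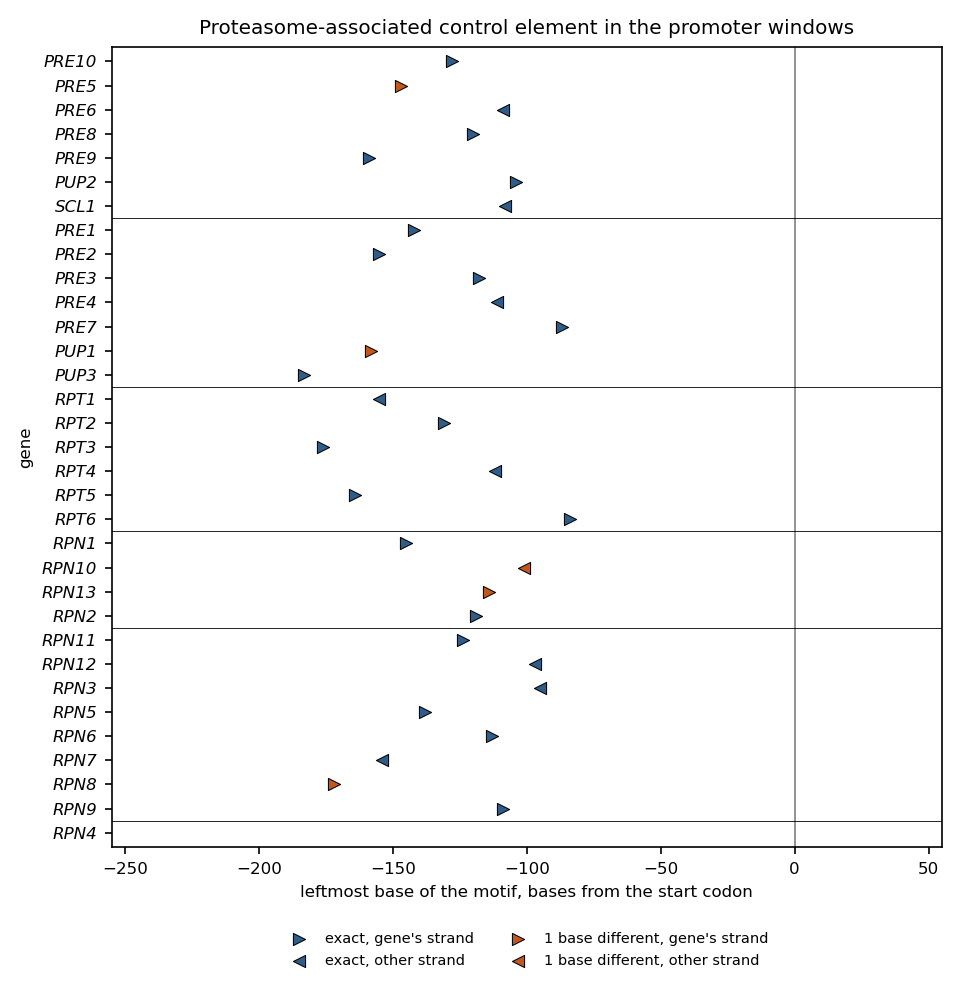
Position of the proteasome-associated control element in the promoter windows of the 33 genes, in bases from the start codon (leftmost base of the motif on the strand of the gene); blue marks exact matches and orange sites with 1 base different, and the triangles point in the direction of the motif. The exact sites of 27 genes lie between 183 and 84 bases before the start codon, the 5 others fall in the same stretch, and RPN4 has none.

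In YPL the subunit genes were at similar levels once divided by coding length. The median over the 32 was 3300.3 normalised read counts per kb in cho2Δ cells and 3342 per kb in WT cells, with the highest member at 3.21 times the lowest in cho2Δ and at 2.72 times in WT. PRE1, a structural beta subunit gene, was highest at 5675 ± 412 per kb in cho2Δ and 5420.1 ± 48.1 per kb in WT (SD, n = 2 each). In both strains PRE1, PRE3 and PRE10 were the 3 highest, and PUP1, RPN12 and RPN1 the 3 lowest.
RPN1, which encodes a scaffold subunit of the base, was at 1974 ± 0.29 per kb in cho2Δ and 1995 ± 4.22 in WT. The 14 core genes had a median of 3654 per kb in cho2Δ and 3760.4 in WT, above the 18 genes of the 19S particle at 2833 in cho2Δ and 2864 in WT.

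The levels spread apart after the transfer. The highest subunit gene was at 3.70 times the lowest per kb at 1 h and at 7.48 times at 3 h in cho2Δ cells, and at 3.05 times at 1 h and 5.36 times at 3 h in WT cells. At 3 h PRE3, which encodes the caspase-like catalytic subunit, led with 8008 ± 347 per kb in cho2Δ and 8990.4 ± 1861 in WT. PUP1, which encodes the trypsin-like catalytic subunit of the same ring, was lowest at 1070.3 ± 81 per kb in cho2Δ and 1677 ± 12.8 in WT. RPN10, at 1146 ± 55.9 per kb in cho2Δ and 2233 ± 158 in WT, and PRE8, at 1599.7 ± 179.7 in cho2Δ and 2270.2 ± 80.1 in WT, came next above it. These are the 3 genes that fell at 3 h while most others rose.

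In cho2Δ cells the subunit genes rose together within 1 h of the transfer. Of the 33 genes, 26 were higher at 1 h in SL than in YPL and none was lower, where 25.2% of all tested genes were higher and 24.6% lower (limma, adjusted p under 0.05 over 6546 genes). The median difference over the 32 subunit genes was 0.57 on the log2 scale, against 0.05 for all tested genes, and 30 of the 32 lay above 0, or 31 under quantile scaling. All 7 beta subunit genes rose, as did 6 of 7 alpha, 5 of 6 ATPase, 2 of 4 other base and 6 of 8 lid genes; the members not called were PRE8, RPT4, RPN2, RPN5, RPN7, RPN10 and RPN4.

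The steepest rise at 1 h in cho2Δ was that of PRE3. It had 2521 and 2704 in YPL, 5196 and 4849 at 1 h and 5348 and 5030.4 at 3 h in cho2Δ cells. In WT cells PRE3 had 2852 and 2654 in YPL, 3829.7 and 3324 at 1 h and 4973 and 6679 at 3 h. In cho2Δ both libraries in SL were above both in YPL at either time (log2 0.94, SE 0.17, adjusted p = 5.24e-05 at 1 h), and at 1 h both were also above both WT libraries. RPT1, an ATPase gene, had 4937 and 5596 in YPL, 9326 and 8801 at 1 h and 7091 and 5367 at 3 h in cho2Δ cells. In WT cells RPT1 had 4792 and 5432 in YPL, 7014 and 6525 at 1 h and 8085 and 6491 at 3 h. Its cho2Δ libraries peaked at 1 h (log2 0.79, SE 0.18, adjusted p = 0.00061 against YPL), and at 3 h 1 of them was below the higher YPL library.

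PRE5, an alpha subunit gene, had 2601 and 2769 in YPL, 4695 and 4463 at 1 h and 3347 and 2911 at 3 h in cho2Δ cells. In WT cells PRE5 had 2899 and 2559 in YPL, 3184 and 3005 at 1 h and 3144 and 3199.7 at 3 h. Both cho2Δ libraries at 1 h were above all 10 other libraries (log2 0.77, SE 0.16, adjusted p = 0.000251 against YPL). RPT3, another ATPase gene, had 4541 and 4702 in YPL, 7928 and 7783 at 1 h and 7319 and 5221 at 3 h in cho2Δ cells. In WT cells RPT3 had 4195 and 4555 in YPL, 5960.5 and 6029 at 1 h and 7169 and 7052 at 3 h. In both strains its SL libraries were above its YPL libraries (log2 0.77, SE 0.17, adjusted p = 0.000562 at 1 h in cho2Δ). The count of 26 fell to 16 without the first cho2Δ library in YPL and to 14 without the first at 1 h, and was 19 to 27 without any 1 other library.

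**Figure D2:**
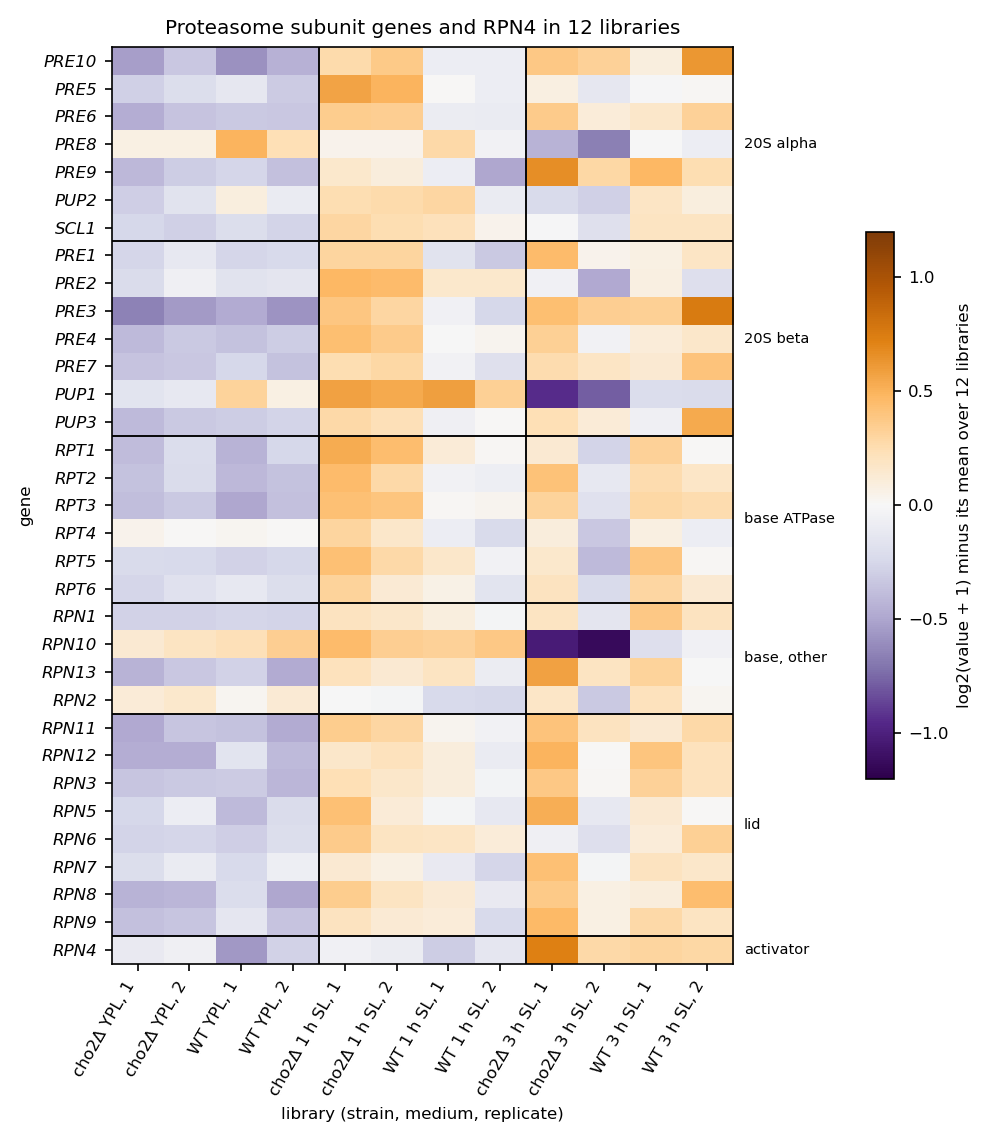
Normalised read counts of the 33 genes in the 12 libraries, as log2(value + 1) minus the mean of each gene over the libraries (colour scale), with genes grouped by their place in the proteasome and libraries by medium and time, cho2Δ left of WT in each. Most genes are above their mean in cho2Δ at 1 h, in WT at 3 h and in the first cho2Δ library at 3 h. The 2 cho2Δ libraries at 3 h disagree, with a median over the subunit genes of 0.29 in the first and -0.12 in the second. RPN10, PUP1 and PRE8 are below their means in cho2Δ at 3 h. At 1 h 31 of the 32 subunit genes lie above WT in cho2Δ under all scalings tried.

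In WT cells the same genes were nearer to the background of all genes at 1 h. Of the 33 genes, 7 were higher at 1 h than in YPL and none was lower, where 33.7% of all tested genes were higher and 23.8% lower. The median over the subunit genes was 0.27, against 0.18 for all tested genes. Of the 32, 28 lay above 0 with the deposited factors, 23 with TMM or DESeq2 factors and 30 under quantile scaling. The 7 genes were RPT3, PRE10, RPN13, RPN11, RPN3, RPN6 and SCL1, and all 7 were also among the 26 of cho2Δ. Each strain was compared with its own YPL libraries, and the overlap over all tested genes was not counted.

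The WT count at 1 h depended on the scaling and on single libraries. It was 1 higher and 3 lower with TMM factors, 3 higher and 3 lower with DESeq2 and 28 higher under quantile scaling. Without either WT library in YPL or the first at 1 h it was 0, without the second at 1 h or either cho2Δ library at 1 h it was 1, without either cho2Δ library in YPL it was 3, and without either cho2Δ library at 3 h it was 15, of which 14 were higher. The 4 genes with the largest differences were RPT3 (log2 0.46, SE 0.17, adjusted p = 0.0251), PRE10 (log2 0.44, SE 0.18, adjusted p = 0.0372), RPN13 (log2 0.43, SE 0.18, adjusted p = 0.0429) and RPN11 (log2 0.41, SE 0.16, adjusted p = 0.0288).

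PRE10, an alpha subunit gene, had 3555 and 4068 in YPL, 6165 and 6619.5 at 1 h and 6682 and 6427 at 3 h in cho2Δ cells. In WT cells PRE10 had 3416 and 3769 in YPL, 4862 and 4843 at 1 h and 5469 and 7915 at 3 h. In each strain both libraries in SL were above both in YPL at either time. RPN11, which encodes the deubiquitinase of the lid, had 2638 and 2896 in YPL, 4697 and 4528 at 1 h and 4872 and 4227 at 3 h in cho2Δ cells. In WT cells RPN11 had 2863 and 2649 in YPL, 3764 and 3579 at 1 h and 4043 and 4448 at 3 h. It too was higher in SL in both strains, and the cho2Δ libraries at 1 h were above those of WT. RPN13, a ubiquitin receptor gene of the base, had 1047 and 1126 in YPL, 1636 and 1554 at 1 h and 2113 and 1613 at 3 h in cho2Δ cells. In WT cells RPN13 had 1164 and 1016 in YPL, 1615 and 1330.1 at 1 h and 1753 and 1408 at 3 h. Its SL libraries were all above its YPL libraries of the same strain, and the strains overlapped at 1 h.

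Between strains at 1 h, most subunit genes had higher values in cho2Δ than in WT, and 2 of them passed the test. The median difference over the 32 genes was 0.29 on the log2 scale, against -0.07 for all tested genes, and 31 of the 32 lay above 0 with the deposited, TMM, quantile and DESeq2 scalings alike. Both cho2Δ libraries were above both WT libraries for 27 of the 32 genes and below them for 0, against 24.6% above and 39.9% below among all tested genes. The subunit genes took 1.62 ± 0.06% of recovered reads in cho2Δ and 1.32 ± 0.08% in WT at 1 h (SD, n = 2 each).

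Few single genes passed the test at 1 h. Only PRE5 (log2 0.57, SE 0.16, adjusted p = 0.0243) and PRE1 (log2 0.55, SE 0.17, adjusted p = 0.0395) were called, both higher in cho2Δ, where 3.64% of all tested genes were higher and 5.59% lower. PRE1 had 3214 and 3562 in YPL, 4761 and 4769.7 at 1 h and 5299 and 3959 at 3 h in cho2Δ cells. In WT cells PRE1 had 3216 and 3256 in YPL, 3434 and 3084 at 1 h and 4059 and 4371 at 3 h. At 1 h its cho2Δ libraries were both above its WT libraries, while in YPL and at 3 h the strains overlapped. An unadjusted p under 0.05 was reached by 13 of the 33 genes, against 21.9% of all tested genes, and the median differences of the classes were 0.40 for alpha, 0.38 for beta, 0.39 for ATPase, 0.14 for other base and 0.25 for lid genes. The count was 14 with TMM factors, 18 with DESeq2 and 11 when only the groups compared were fitted. It was 0 without any 1 of the 4 libraries at 1 h, 1 without either cho2Δ library in YPL, 8 without either cho2Δ library at 3 h and 3 without the first of WT then.

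No difference between strains in YPL passed the same test. None of the 33 genes was called, where 0.412% of all tested genes were called in either direction, 0 had an unadjusted p under 0.05, against 6.97% of all tested genes, and edgeR and DESeq2 also called 0. The differences ranged from -0.33 for PUP1 to 0.33 for RPN4 with SEs of 0.16 to 0.19, and the median over the subunit genes was -0.02, against 0.01 for all tested genes. The share of reads was 1.11 ± 0.04% in cho2Δ and 1.12 ± 0.00874% in WT (SD, n = 2 each).

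The difference between the responses of cho2Δ and WT at 1 h against YPL was 0.12 to 0.59 on the log2 scale over the 32 subunit genes. Its median was 0.33, against -0.09 for all tested genes, and all 32 lay above 0 under each scaling tried. None of the 33 genes passed this interaction test (limma), where 1.62% of all tested genes were called higher. An unadjusted p under 0.05 was reached by 3 of the 33, PRE5, PRE3 and PRE6, against 13.8% of all tested genes. The smallest adjusted p was 0.19, for PRE5 (log2 0.59). DESeq2 called 7, TMM scaling 4 and edgeR with the deposited factors 0. These differences contain the same 4 libraries at 1 h as the comparison between strains there and are not independent of it.

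**Figure D3:**
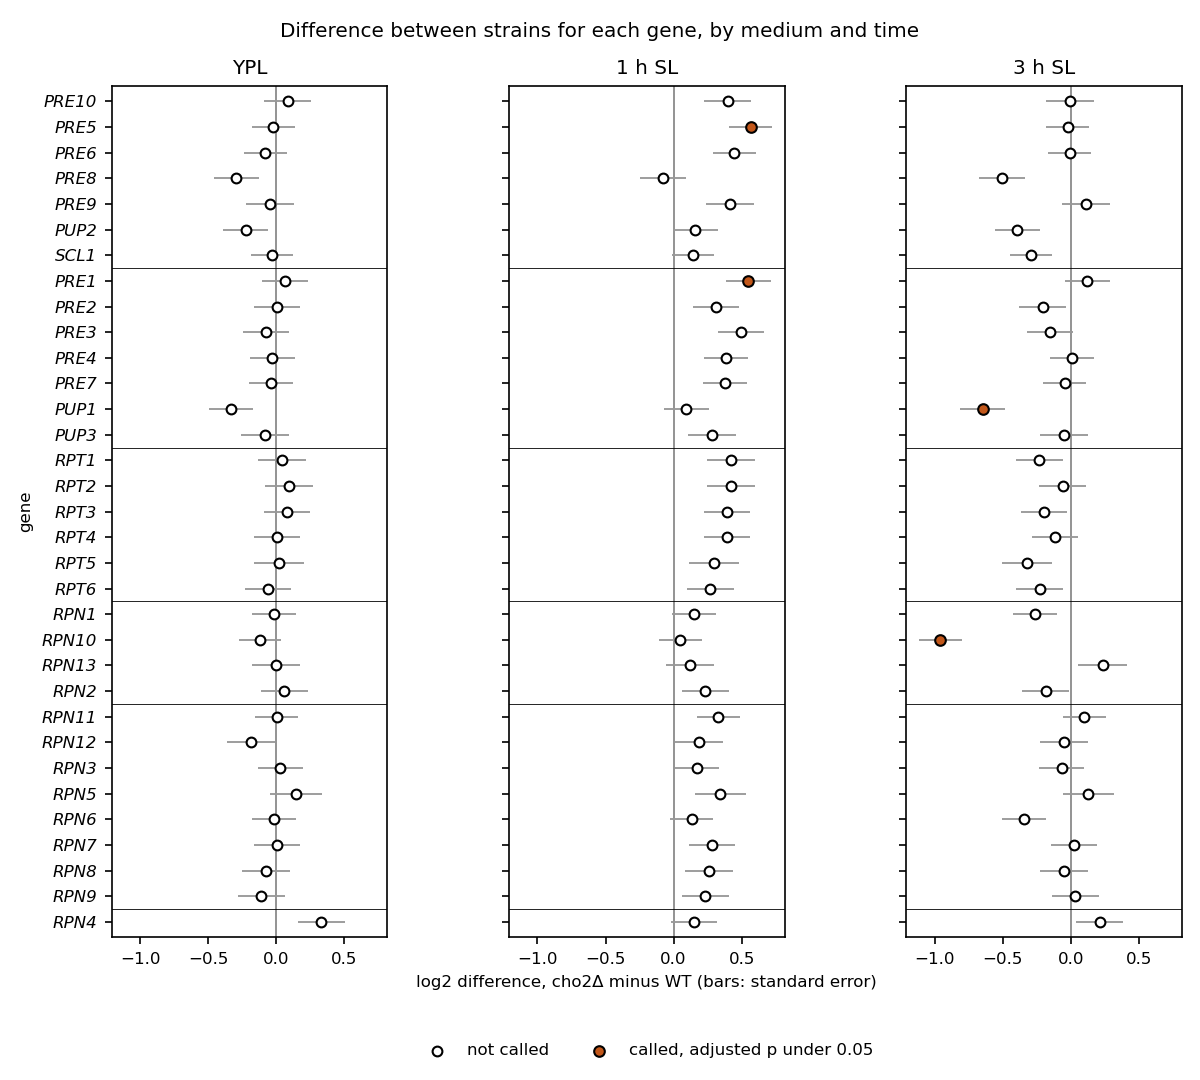
Difference between cho2Δ and WT for each of the 33 genes, as log2 difference with its standard error from the limma fit, in YPL, at 1 h and at 3 h in SL; filled points passed the test. At 1 h 31 of the 32 subunit genes lie to the right of 0 under all scalings tried and PRE5 and PRE1 are called, while at 3 h RPN10 and PUP1 are called on the left.

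By 3 h most subunit genes were above their YPL level in both strains. In cho2Δ 17 of the 33 genes were higher and 3 lower than in YPL, where 19.8% of all tested genes were higher and 37% lower. In WT 21 were higher and 3 lower, where 22.9% of all tested genes were higher and 30.8% lower. The median over the subunit genes was 0.39 in cho2Δ, against -0.18 for all tested genes, and 0.48 in WT, against -0.08, with 25 of the 32 above 0 in cho2Δ (27 to 28 under other scalings) and 28 in WT (29 under other scalings).

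Of the genes called at 3 h, 16 were higher in both strains, which is 16 of 17 in cho2Δ and 16 of 21 in WT, and PRE8, PUP1 and RPN10 were lower in both. How many of all tested genes were called in both strains was not counted, so this overlap has no background beside it. The share of reads of the subunit genes was 1.54 ± 0.08% in cho2Δ and 1.57 ± 0.06% in WT (SD, n = 2 each). Without the second cho2Δ library at 3 h, 22 genes were higher and 3 lower in cho2Δ and the median was 0.60. Without the first, 13 were higher and 5 lower and the median was 0.15. In WT the count fell from 24 in all to 14 without the first library at 3 h, 15 without the second, 15 without either library in YPL.

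PRE3 was the most raised subunit gene at 3 h in both strains (log2 0.99, SE 0.17, adjusted p = 2.42e-05 in cho2Δ; log2 1.07, SE 0.17, adjusted p = 9.48e-06 in WT). PRE10 followed in WT (log2 0.87, SE 0.18, adjusted p = 0.000178) and was similar in cho2Δ (log2 0.78, SE 0.18, adjusted p = 0.000523). PRE9, whose product is the only core subunit that yeast can live without, had 2782 and 2995 in YPL, 4118 and 3968 at 1 h and 5845 and 4514 at 3 h in cho2Δ cells. In WT cells PRE9 had 3090.2 and 2866 in YPL, 3509.6 and 2623 at 1 h and 5124 and 4411 at 3 h. In both strains its 3 h libraries were above all its other libraries (log2 0.83, SE 0.18, adjusted p = 0.000316 in cho2Δ against YPL). RPN13 was raised in cho2Δ (log2 0.77, SE 0.18, adjusted p = 0.000803) and RPT3 in WT (log2 0.70, SE 0.17, adjusted p = 0.0012).

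Between 1 h and 3 h few members were called in either strain with the deposited factors, and in WT the count depended on the scaling. In cho2Δ 1 gene, RPN4, was higher at 3 h than at 1 h and 7 were lower, where 7.99% of all tested genes were higher and 23.8% lower. In WT 3 genes, PRE3, PRE9 and RPN4, were higher and 2, PUP1 and RPN10, were lower, where 11.1% of all tested genes were higher and 25.5% lower. The median over the subunit genes was -0.14 in cho2Δ, against -0.16 for all tested genes, with 7 of 32 above 0 but 17 of 32 with TMM or DESeq2 factors. Without the first cho2Δ library at 3 h that median was -0.35, and without the second it was 0.00016. In WT it was 0.24, against -0.21 for all tested genes, with 28 of 32 above 0 and 27 to 30 under other scalings. TMM factors raised the WT count to 22 and DESeq2 to 25.

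The 7 genes lower at 3 h than at 1 h in cho2Δ were PRE2, PRE5, PRE8, PUP1, PUP2, RPT1 and RPN10. PRE2, which encodes the chymotrypsin-like catalytic subunit, had 2933 and 3272 in YPL, 4758 and 4698 at 1 h and 3312 and 2442 at 3 h in cho2Δ cells. In WT cells PRE2 had 3061 and 3103 in YPL, 3821 and 3801 at 1 h and 3615 and 2989 at 3 h. In cho2Δ it peaked at 1 h and at 3 h overlapped its YPL level (log2 -0.73, SE 0.17, adjusted p = 0.00189 at 3 h against 1 h). The count of 8 was 3 without either cho2Δ library at 1 h and 15 without the first cho2Δ library at 3 h, all of them lower. Without the second at 3 h it was again 8, of which 2 were higher and 6 lower. In WT, PRE3 (log2 0.69, SE 0.17, adjusted p = 0.00256) and PRE9 (log2 0.65, SE 0.18, adjusted p = 0.00602) rose from 1 h on, and PRE3 was not called without the second WT library at 3 h. The WT count of 5 was 3 without either WT library at 1 h or the second at 3 h, and 11 without either cho2Δ library at 3 h.

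The change between 1 h and 3 h was lower in cho2Δ than in WT for 31 of the 32 subunit genes under each scaling tried, with a median of -0.43 against -0.01 for all tested genes. It contains the same libraries at 1 h as the comparison between strains there, where the subunit median was 0.29, and is not independent of it. At 3 h the median difference between strains was -0.07. RPN10 alone of the 33 passed the interaction test (limma), where 1.44% of all tested genes were called lower, and 11 of the 33 had an unadjusted p under 0.05, against 13.8% of all tested genes. For the change between YPL and 3 h, 0.0764% of all tested genes were called higher and 0.626% lower. None of the 33 was called there by limma or edgeR, and DESeq2 called 1. An unadjusted p under 0.05 was reached by 1 of the 33, against 566 of 6546 tested genes. For the change after 1 h, DESeq2 called 10 genes lower and TMM scaling 2. Without the first cho2Δ library at 3 h 9 genes were called and the median was -0.57, and without the second 2 were called and it was -0.29. Leaving out either cho2Δ library at 1 h, the first of WT then or the second of WT at 3 h left no call.

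**Figure D4:**
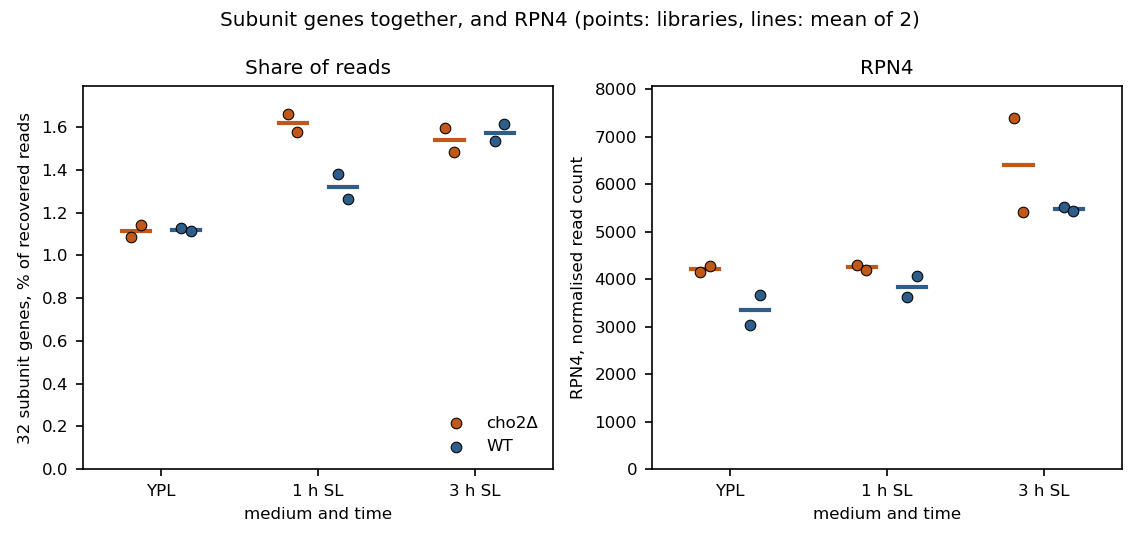
Left, the 32 subunit genes together as a percentage of the recovered reads of each library; right, RPN4 as normalised read count; points are libraries and lines the mean of 2, with cho2Δ left of WT at each time. The subunit share was 1.62% in cho2Δ and 1.32% in WT at 1 h and 1.54% in cho2Δ and 1.57% in WT at 3 h, while RPN4 was highest in the 4 libraries at 3 h.

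RPN4 itself was called at 3 h and not at 1 h. It had 4147 and 4268 in YPL, 4298 and 4197 at 1 h and 7390.1 and 5414 at 3 h in cho2Δ cells. In WT cells RPN4 had 3037 and 3674 in YPL, 3615 and 4054 at 1 h and 5507 and 5436 at 3 h. In each strain the 3 h libraries were above all others, and at 1 h, when the subunit genes of cho2Δ had risen, RPN4 was close to its YPL values there. The difference between 1 h and YPL was 0.01 in cho2Δ and 0.20 in WT on the log2 scale (SE 0.17 each), neither called, and in cho2Δ it was -0.046 with TMM and -0.024 with DESeq2 factors.

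RPN4 rose at 3 h against YPL in both strains (log2 0.59, SE 0.17, adjusted p = 0.0055 in cho2Δ; log2 0.71, SE 0.17, adjusted p = 0.00121 in WT), and these calls held with any 1 library left out. It also rose between 1 h and 3 h (log2 0.57, SE 0.17, adjusted p = 0.0128 in cho2Δ; log2 0.52, SE 0.17, adjusted p = 0.0219 in WT). That call was lost in cho2Δ without the first library at 3 h (adjusted p = 0.071) or either at 1 h (0.079 and 0.095), and in WT without the first library at 1 h (0.135) or either at 3 h (0.077 and 0.067). No difference between strains passed the test for RPN4: cho2Δ minus WT was 0.33 in YPL, 0.15 at 1 h and 0.21 at 3 h, with an SE of 0.17 each and adjusted p of 0.76, 0.68 and 0.58 (limma). The difference at 3 h was -0.015 without the first cho2Δ library then and 0.43 without the second.

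RPN10, PUP1 and PRE8 departed from the other members. RPN10, which encodes a ubiquitin receptor of the base, had 2148 and 2240.2 in YPL, 2682 and 2474 at 1 h and 957 and 893 at 3 h in cho2Δ cells. In WT cells RPN10 had 2286 and 2479 in YPL, 2446 and 2536 at 1 h and 1712 and 1892 at 3 h. The 3 h libraries of each strain were below all its other libraries, and those of cho2Δ were below those of WT. PUP1 had 1374 and 1406 in YPL, 2281 and 2221 at 1 h and 796 and 886 at 3 h in cho2Δ cells. In WT cells PUP1 had 1906 and 1607 in YPL, 2302 and 1930.1 at 1 h and 1325 and 1311 at 3 h. It was higher at 1 h than in YPL in cho2Δ and below its YPL level at 3 h in both strains. PRE8, an alpha subunit gene, had 1841 and 1849 in YPL, 1809 and 1812 at 1 h and 1300.2 and 1109 at 3 h in cho2Δ cells. In WT cells PRE8 had 2468 and 2069.7 in YPL, 2135 and 1710.5 at 1 h and 1752 and 1667 at 3 h. It was not called at 1 h in either strain, and its lowest libraries were those of cho2Δ at 3 h.

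At 3 h RPN10 (log2 -0.96, SE 0.16, adjusted p = 0.00107) and PUP1 (log2 -0.65, SE 0.16, adjusted p = 0.0291) were lower in cho2Δ than in WT, the only members called, where 2.83% of all tested genes were lower and 0.611% higher. Over the 32 subunit genes the median difference was -0.07, against -0.08 for all tested genes, and 8 lay above 0 (15 to 18 under other scalings). This median had no stable sign: it was -0.27 without the first cho2Δ library at 3 h and 0.052 without the second. The RPN10 call held with any 1 library left out and under each alternative except a fit to the 4 libraries at 3 h alone (adjusted p = 0.139). The PUP1 call was lost in that fit (0.715), with TMM factors (0.063), under quantile scaling (0.074), and without either WT library at 3 h (0.116 and 0.085), either cho2Δ library in YPL (0.055 each) or either at 1 h (0.062 each). Without the first cho2Δ library at 3 h 5 members were lower, and without the second 2.

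Within cho2Δ, RPN10 fell at 3 h against YPL (log2 -1.25, SE 0.16, adjusted p = 3.2e-07) and against 1 h (log2 -1.48, SE 0.16, adjusted p = 1.28e-07), and so did PUP1 (log2 -0.73, SE 0.16, adjusted p = 0.000573 and log2 -1.42, SE 0.16, adjusted p = 4.08e-07) and PRE8 (log2 -0.62, SE 0.17, adjusted p = 0.003 and log2 -0.59, SE 0.17, adjusted p = 0.00886). In WT the 3 genes also fell against YPL, RPN10 (log2 -0.40, SE 0.16, adjusted p = 0.0334), PUP1 (log2 -0.41, SE 0.16, adjusted p = 0.0385) and PRE8 (log2 -0.40, SE 0.17, adjusted p = 0.0462), and under quantile scaling none of these 3 WT calls was kept. With 1 library left out in turn, the WT call held in 4 of 12 fits for RPN10, 5 for PUP1 and 3 for PRE8. Against 1 h, PUP1 (log2 -0.68, SE 0.16, adjusted p = 0.0023) and RPN10 (log2 -0.47, SE 0.16, adjusted p = 0.0221) fell in WT, and RPN10 was not called with TMM factors (0.069). The difference between strains in the change between 1 h and 3 h was called for RPN10 (log2 -1.01, SE 0.22, adjusted p = 0.0134) and not for PUP1 (log2 -0.74, SE 0.23, adjusted p = 0.1). The RPN10 call was lost without the first WT library at 1 h (adjusted p = 0.055), the second at 3 h (0.057) or either cho2Δ library at 1 h (0.144 and 0.079).

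**Figure D5:**
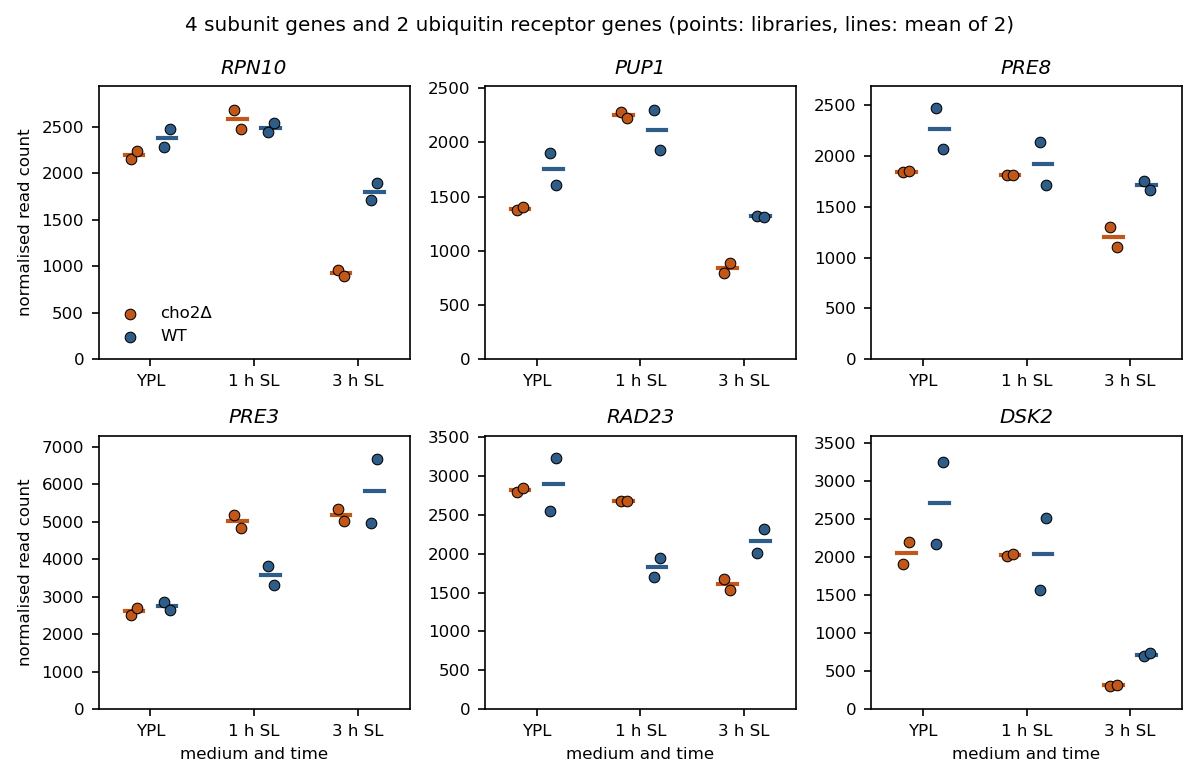
Normalised read counts of RPN10, PUP1, PRE8 and PRE3 and of the ubiquitin receptor genes RAD23 and DSK2 in each library (points) with the mean of 2 (lines), cho2Δ left of WT. RPN10 and DSK2 are lowest at 3 h and lower in cho2Δ (957 and 893 for RPN10) than in WT (1712 and 1892), whereas PRE3 is above its YPL level in both strains.

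Other genes of the pathway were counted from lists chosen with earlier results of these data known. Of 10 genes for assembly factors, 3 were higher and 0 lower at 1 h against YPL in cho2Δ, where 25.2% of all tested genes were higher, and 5 were higher in WT, where 33.7% were. UMP1, the chaperone that matures the core, had 2717 and 3562 in YPL, 5678 and 6269 at 1 h and 6154 and 4040.0 at 3 h in cho2Δ cells. In WT cells UMP1 had 2024 and 3032 in YPL, 2687 and 3747 at 1 h and 4194 and 4644 at 3 h. It was the 1 gene of the list called between strains at 1 h (log2 0.91, SE 0.22, adjusted p = 0.00801), where both cho2Δ libraries were above both WT libraries; leaving out the first library of WT there (adjusted p = 0.138) or the second of cho2Δ (0.088) ended the call. TMA17, a chaperone of the base, rose in both strains (log2 1.44, SE 0.25, adjusted p = 3.3e-05 in cho2Δ and log2 1.51, SE 0.25, adjusted p = 1.51e-05 in WT at 1 h).

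Of 10 genes for proteins that associate with the proteasome, 8 were higher and 0 lower at 1 h against YPL in cho2Δ, where 25.2% of all tested genes were higher and 24.6% lower. In WT 5 were higher and 1 lower, where 33.7% were higher and 23.8% lower. BLM10, an alternative cap of the core, rose in both (log2 1.15, SE 0.17, adjusted p = 3.09e-06 in cho2Δ and log2 0.99, SE 0.17, adjusted p = 2.27e-05 in WT), as did SPG5, HUL5 and FUB1. Between strains at 1 h, where 3.64% of all tested genes were higher, 4 of the 10 were higher in cho2Δ, namely SEM1 (log2 0.91, SE 0.22, adjusted p = 0.0089), SPG5 (log2 0.61, SE 0.17, adjusted p = 0.0244), RAD23 (log2 0.55, SE 0.17, adjusted p = 0.0369) and DDI1 (log2 0.54, SE 0.17, adjusted p = 0.0483). SEM1 encodes a small lid subunit that the list of 33 does not hold, and DDI1, RAD23 and DSK2 encode receptors that carry ubiquitinated proteins to the proteasome. Leaving out the first library of WT at 1 h ended all 4 calls, as did leaving out either one of cho2Δ. The log2 differences without that WT library were 0.67 for SEM1, 0.66 for SPG5, 0.46 for RAD23 and 0.50 for DDI1. Leaving out the second WT library at 1 h ended the calls of SPG5 (log2 0.55), RAD23 (0.65) and DDI1 (0.59). RAD23 and DDI1 were also not called without either cho2Δ library in YPL. DDI1 was also not called without either WT library in YPL or without the filter on low values.

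The shuttle receptor genes DSK2 and RAD23 were lower at 3 h than in YPL in both strains. They were the 2 of the 10 genes called lower then in each strain, where 37% of all tested genes were lower in cho2Δ and 30.8% in WT. DSK2 had 1905 and 2198 in YPL, 2018 and 2044 at 1 h and 308 and 321 at 3 h in cho2Δ cells. In WT cells DSK2 had 2177 and 3246 in YPL, 1569 and 2509.7 at 1 h and 695 and 741 at 3 h. At 3 h it was below all earlier libraries in both strains and lower in cho2Δ than in WT (log2 -1.19, SE 0.20, adjusted p = 0.00155), the 1 gene of the 10 called there, and this call was not kept when the second library of both 3 h groups was left out (adjusted p = 0.054). RAD23 had 2802 and 2853 in YPL, 2677 and 2685 at 1 h and 1677 and 1538 at 3 h in cho2Δ cells. In WT cells RAD23 had 2553 and 3237 in YPL, 1707 and 1953 at 1 h and 2015 and 2325 at 3 h. Against YPL it fell in WT at 1 h (log2 -0.65, SE 0.17, adjusted p = 0.00175) and at 3 h, and in cho2Δ at 3 h (log2 -0.82, SE 0.17, adjusted p = 0.000199). The strains' changes at 1 h were not called different (log2 0.58, SE 0.24, adjusted p = 0.23). The change between 1 h and 3 h was lower in cho2Δ than in WT for DSK2 (log2 -1.22, SE 0.29, adjusted p = 0.0222) and RAD23 (log2 -0.98, SE 0.24, adjusted p = 0.0236). Leaving out the first WT library at 1 h, either of cho2Δ at 1 h or the second of WT at 3 h ended both calls (adjusted p of 0.064 to 0.153), and leaving out either cho2Δ library at 3 h ended that of DSK2 (0.061 and 0.064). The DSK2 call was also lost under quantile scaling (0.063) and with edgeR and TMM (0.057).

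Of 10 genes of ubiquitin conjugation and of the Cdc48 segregase, 7 were higher at 1 h against YPL in cho2Δ and 4 in WT, where 25.2% of all tested genes were higher in cho2Δ and 33.7% in WT. At 3 h 5 were higher in each, where 19.8% of all tested genes were higher in cho2Δ and 22.9% in WT, and none was lower at either time. UBA1, the ubiquitin-activating enzyme, rose at 1 h (log2 0.80, SE 0.17, adjusted p = 0.000358 in cho2Δ and log2 0.53, SE 0.17, adjusted p = 0.0105 in WT). UBI4, the polyubiquitin gene, also rose (log2 0.97, SE 0.20, adjusted p = 0.000274 in cho2Δ and log2 1.28, SE 0.20, adjusted p = 7.96e-06 in WT), although its reads can be shared with other ubiquitin genes. CDC48, UFD1 and NPL4, the segregase and its cofactors, were higher at 1 h in cho2Δ and lower at 3 h than at 1 h (log2 -0.69, -0.71 and -0.58). Of the 10 genes 3 were lower at 3 h than at 1 h in cho2Δ, near the 23.8% of all tested genes. In the 3 comparisons of cho2Δ with WT none of these genes was called (limma). The number with an unadjusted p under 0.05 was 0 in YPL, 1 at 1 h and 1 at 3 h. Among the 6546 tested genes it was 456, 1435 and 1105.

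Of 6 genes known to act on RPN4 or its product, 4 were higher at 1 h against YPL in cho2Δ and 3 in WT, where 25.2% of all tested genes were higher in cho2Δ and 33.7% in WT. YAP1, an activator of RPN4 in oxidative stress, had 2996 and 3219 in YPL, 6193 and 5803 at 1 h and 6304 and 5002 at 3 h in cho2Δ cells. In WT cells YAP1 had 2641 and 3176 in YPL, 4625 and 5057 at 1 h and 5483 and 5955 at 3 h. All its SL libraries were above all its YPL libraries. HSF1, the heat shock factor, fell at 3 h against YPL (log2 -0.85, SE 0.18, adjusted p = 0.000368 in cho2Δ; log2 -0.45, SE 0.18, adjusted p = 0.0401 in WT). MUB1 and UBR2, whose products form the ligase that marks Rpn4 for degradation, were higher at 3 h than in YPL in both strains (log2 1.05 and 0.52 in cho2Δ; 0.95 and 0.63 in WT). None of the 6 was called between strains at any time (limma), and 0 had an unadjusted p under 0.05. Among the 6546 tested genes 456 had one in YPL, 1435 at 1 h and 1105 at 3 h.

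Among the 44 genes outside the 33 whose promoter windows hold the control element, 4 were higher and 0 lower in cho2Δ than in WT at 1 h, where 3.64% of all tested genes were higher and 5.59% lower. They were ACS1, SDH9, COA6 and SGT2, with log2 differences of 0.75, 1.52, 0.62 and 0.65. The median over the 44 was 0.15, against -0.07 for all tested genes, and 0.29 for the subunit genes. At 1 h against YPL 22 of the 44 were higher and 7 lower in cho2Δ, where 25.2% of all tested genes were higher and 24.6% lower. In WT 16 were higher and 8 lower, where 33.7% were higher and 23.8% lower. CDC48, UBA1, UBI4, ECM29 and YAP1 are among these 44.

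The genes outside the 33 whose profile over the 12 libraries lay nearest to the median profile of the subunit genes were YOS9, BRF1, NBP35, TCB1, SHP1, YSA1, MMS1, RFA1, RAD9 and TAF1. Their root mean square distances were 0.09 to 0.105 on the log2 scale, among 5115 genes with a symbol and a mean of at least 50. The control element is held by 0 of the 10, against 41 of the 5115 (0.80%). Of the members, PRE4 was nearest to that median profile at 0.0793, followed by RPN1 at 0.0823 and RPT2 at 0.0858. RPN10 at 0.598, PUP1 at 0.53 and PRE8 at 0.426 were farthest, with 3598, 3278 and 2654 of the other genes nearer than they were. RPN4 was at 0.279, with 1222 other genes nearer.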

How the data were processed

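The deposited table gives, for each gene and library, a signal that the authors made by dividing read counts by a size factor, with Bowtie, DESeq and the build sacCer2 named in the submitters' processing notes. For the versions, counting tool, annotation and strand setting the sources used here give nothing. Per the labels, poly-A RNA was made into stranded TruSeq libraries and sequenced. Within each library all values were whole multiples of 1 step, within a tolerance of 0.01, so whole reads were recovered; they give the depths and the count tests.

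The main test, limma 3.58.1 with a trend (R 4.3.3), was run on log2(value + 1) of 6546 genes, those that reached 10 in any 2 libraries. The scale slightly understates changes of low genes. All 12 libraries entered 1 fit with 6 residual degrees of freedom and 12 contrasts: 3 of cho2Δ against WT, 6 between times in a strain and 3 interactions. Each difference is the cho2Δ or later group minus the other, and a gene was called at a Benjamini-Hochberg adjusted p under 0.05 over all tested genes. As alternatives the pseudocount was set to 5, the filter removed or set to 50, and the rest were TMM and quantile scaling, a replicate block, a fit to the compared groups alone, each library left out, and edgeR 4.0.16 and DESeq2 1.42.0 on recovered reads. The scripts were tested on simulated data.

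The members and lists were chosen with earlier results of these data known. Given in full are, per contrast, the 4 called members with the largest difference in each direction and RPN4; the text also names other members, genes of the lists, the 3 highest and 3 lowest per kb and the 10 nearest profiles. ACS1, SDH9, COA6 and SGT2 were named after their values were seen. Coding lengths, promoters and coordinates come from RefSeq R64, in which 6006 of the 6685 listed genes matched by systematic name. Among the members, 0 overlap another annotated gene and 0 have a near-identical copy (95% identity over 50% of the length, blastn 2.17.0).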

Additional observations from a re-analysis of the deposited data

Results flagged for a closer look

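For 3 genes the change between 1 h and 3 h in SL differed between the strains by the interaction test of limma, adjusted over all tested genes. The difference of the cho2Δ change from the WT change was -1.01 for RPN10, -0.98 for RAD23 and -1.22 for DSK2 on the log2 scale. RPN10 fell by 1.48 in cho2Δ and by 0.47 in WT over these hours, and both 3 h libraries of each strain were below both of its 1 h libraries. Each of the 3 calls was lost when the first WT library at 1 h or either cho2Δ library at 1 h was left out. The DSK2 call was also lost under quantile scaling (adjusted p = 0.063), with edgeR and TMM (0.057) and without the second library of both 3 h groups (0.094), and the RAD23 call without those libraries (0.057).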

How the results depend on the processing

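Of the 198 calls of named genes, 91 held under every alternative; over the 4554 pairs of call and alternative, 4090 kept the call, 464 lost it and 0 reversed. Nothing in the labels ties same-numbered libraries together. Their deviations correlated at 0.129 to 0.542 among the 3 WT groups and at -0.196 to 0.419 among the other pairs of groups. The highest values were 0.542 for WT in YPL with WT at 1 h and 0.419 for WT with cho2Δ at 3 h. The main fit did not take the numbers as pairs. A replicate block fits 1 shift common to all 6 groups, so it cannot test a link within a strain or a time. The fit with a replicate block called 8 members in WT at 1 h against YPL (7 without it), 25 at 3 h against YPL (24) and 10 in cho2Δ at 3 h against 1 h (8), and changed no call of a named gene. Where a value below moved, the cause was not tested, beyond the fewer libraries that a left-out library leaves. All 33 genes passed the filter at these depths, from 3.17 M reads; whether depth or the 2 libraries per group limits the calls more was not compared.

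The number of members called in cho2Δ against WT at 1 h was 14 with TMM factors, 6 under quantile scaling, 11 when only the compared groups were fitted, 12 with edgeR and TMM, 18 with DESeq2 and 13 without the second library of both 3 h groups, against 2. At 3 h it was 1 with TMM, quantile scaling or edgeR with TMM and 0 in the fit of those groups alone, against 2. In WT it was 4 with TMM, edgeR or edgeR with TMM, 28 under quantile scaling and 17 without both second 3 h libraries at 1 h against YPL (7), and 22 with TMM or edgeR with TMM, 10 with quantile scaling, 25 with DESeq2 and 9 without those libraries at 3 h against 1 h (5). The interaction counts were 4 (TMM), 1 (quantile), 3 (compared groups), 2 (edgeR with TMM), 7 (DESeq2) and 3 (without both second 3 h libraries) at 1 h against YPL, 1 with DESeq2 at 3 h against YPL, and 2 (TMM), 10 (DESeq2) and 2 (without those libraries) at 3 h against 1 h.

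For RPN4, the log2 difference of WT at 1 h against YPL was 0.46 and called under quantile scaling. That of cho2Δ at 1 h against YPL was -0.046 with TMM, -0.046 with edgeR and TMM and -0.024 with DESeq2, and the interaction at 3 h against YPL was 0.091 without both second 3 h libraries. The subunit median of WT at 1 h against YPL was 0.12 with TMM, edgeR with TMM or DESeq2 and 0.50 under quantile scaling. At 3 h against YPL in WT it was 0.68 under quantile scaling, and at 3 h against 1 h 0.44 with TMM, 0.43 with edgeR and TMM and 0.45 with DESeq2. In cho2Δ it was 0.76 under quantile scaling at 1 h against YPL, and at 3 h against YPL 0.53 with TMM or edgeR with TMM, 0.65 under quantile scaling, 0.56 with DESeq2 and 0.60 without both second 3 h libraries. At 3 h against 1 h in cho2Δ it was above 0 at 0.057 with TMM, 0.058 with edgeR and TMM, 0.072 with DESeq2 and 0.00016 without both second 3 h libraries. Without those libraries it was 0.093 for cho2Δ against WT at 3 h, 0.090 for the interaction at 3 h against YPL and -0.26 for that at 3 h against 1 h, which was -0.30 under quantile scaling. The control element stood in 143 of all promoters as GTGGCAAA and in 453 with 1 base allowed to differ, an alternative chosen after seeing the data.

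With each library left out in turn, the number of members called was 0 to 8 for cho2Δ against WT at 1 h and 1 to 5 at 3 h. In WT it was 0 to 15 at 1 h against YPL, 14 to 28 at 3 h against YPL and 3 to 11 at 3 h against 1 h; in cho2Δ it was 14 to 27, 14 to 25 and 3 to 15 for the same pairs. It was 0 to 1 for the interactions at 1 h and at 3 h against YPL and 0 to 9 at 3 h against 1 h. The RPN4 difference of cho2Δ from WT at 3 h was -0.015 to 0.43, that between 3 h and 1 h was 0.43 to 0.60 in WT and 0.35 to 0.80 in cho2Δ, and that between 1 h and YPL in cho2Δ was -0.0069 to 0.035. Its interactions were -0.35 to 0.10 at 3 h against YPL and -0.16 to 0.28 at 3 h against 1 h. The subunit median was -0.27 to 0.052 for cho2Δ against WT at 3 h, 0.15 to 0.60 for cho2Δ at 3 h against YPL and -0.35 to 0.00016 at 3 h against 1 h, and its interactions were -0.23 to 0.059 and -0.57 to -0.29 at 3 h against YPL and against 1 h.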
